A study of Mus musculus with 54 samples.

Results

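The genes of the Fc gamma receptors of mouse macrophages and their proximal signalling partners were followed through 15 conditions of polarization and siRNA transfection. The 6 genes were taken by symbol out of 39179 gene identifiers in the count tables: Fcgr1, Fcgr3 and Fcgr4 (activating receptors), Fcgr2b (the inhibitory receptor), Fcer1g (the common gamma chain) and Syk (the kinase that binds it). All 6 passed the expression filter, among 16110 genes tested in the polarization experiment and 14172 in the reprogramming experiment.

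The cells were thioglycolate-elicited peritoneal macrophages of C57BL/6 mice, kept as adherent cells, and RNA was sequenced. In the polarization experiment, cells of 3 mice were kept for 24 h without stimulus (M0), with LPS and IFNγ (M1-like) or with IL-4 (M2-like), with 2 technical replicates of each mouse and condition, which were summed. In the reprogramming experiment, 12 conditions had 3 replicates each. The 3 states were sequenced untransfected and again after mock transfection, and M2-like macrophages also with a negative control siRNA pool, with a pool against E2f1, Myc, Pparg or Stat6, or with all 4 targeting pools combined (iM1 macrophages). Transfected cells had been polarized for 24 h, were transfected, and were harvested 48 h later. Per the study's methods, M2-like cells of the reprogramming were kept without IL-4 after transfection. Untransfected cells were sequenced after 24 h of polarization per the study's methods, which do not name the experiment, and values given below as at 24 h are those of the polarization experiment. The study describes its 3 replicates as biological, but the sources used here name no animal for a reprogramming sample and no age per sample, so that p-values of this experiment measure the spread between these samples. That spread (chi-square per gene 4.475 to 22.97) was wider than between technical replicates of the polarization experiment (1.07 to 1.097), where different mice gave 3.642 to 52.15. No technical replicates are named for the reprogramming experiment.

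Fc gamma receptors bind the constant part of IgG in immune complexes and on antibody-coated particles. The activating receptors have no signalling motif of their own and rely on the common gamma chain, whose immunoreceptor tyrosine-based activation motif (ITAM) is phosphorylated by Src-family kinases and then recruits Syk. Syk passes the signal to adaptors, lipid kinases and the actin machinery that closes the phagocytic cup. Fcgr2b carries an inhibitory motif (ITIM) instead, which recruits the lipid phosphatase encoded by Inpp5d and dampens the activating receptors on the same cell, so that the balance of both kinds is known to set how strongly a macrophage responds to IgG.

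On GRCm38, 4 of the genes lie within 1 stretch of chromosome 1, from Fcgr2b (ENSMUSG00000026656, 170958617 to 170976547, minus strand) through Fcgr4 (ENSMUSG00000059089, 171018920 to 171029761, plus strand) and Fcgr3 (ENSMUSG00000059498, 171051174 to 171064935, minus strand) to Fcer1g (ENSMUSG00000058715, 171229572 to 171234365, minus strand). Fcgr1 (ENSMUSG00000015947) lies on chromosome 3 from 96282909 to 96293969 on the minus strand, and Syk (ENSMUSG00000021457) on chromosome 13 from 52583173 to 52648792 on the plus strand. The motifs named above are printed as their codons. By letters alone the ITIM pattern also matched 3 times in Fcgr1 and once each in Fcgr4 and Fcer1g, so that the match does not set Fcgr2b apart, and the one printed is the known motif of Fcgr2b. The first sequence below gives codons 317 to 322 of Fcgr2b (chr1:170961071-170961088, minus strand), with the codon of the ITIM's tyrosine in capitals. The second gives codons 65 to 79 of Fcer1g (between chr1 positions 171229889 and 171230072, minus strand, across an intron), with the codons of both ITAM tyrosines in capitals.
Fcgr2b ITIM codons: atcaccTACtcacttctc
Fcer1g ITAM codons: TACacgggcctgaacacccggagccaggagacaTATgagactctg

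Fcgr2b and Fcgr3 are the pair of receptors between which short reads could be misassigned. Their coding sequences were 86.7% identical over 782 aligned bases, whereas the other 5 pairs of receptor genes were 64.4% to 68.6% identical. Of all stretches of 50 bases, the read length of the polarization experiment, 166 occurred in both genes, which is 4.75% of the Fcgr2b and 12.8% of the Fcgr3 transcript. No stretch of 150 bases, the read length of the reprogramming experiment, was shared, and Fcgr1 and Fcgr4 shared no stretch of either length with another receptor. The longest common run, 129 bases in the exons that code for the IgG-binding part, is printed to show the sequence from which a short read fits both genes (coding positions 278 to 406 of Fcgr2b, between chr1 positions 170966674 and 170968081, and 263 to 391 of Fcgr3, between 171054167 and 171057792, minus strand, across an intron in each). The antisense gene Gm38204 overlaps Fcgr2b in the annotation, and since the treatment of strand is not given, its reads cannot be told apart from those of Fcgr2b.
Fcgr2b and Fcgr3, common run: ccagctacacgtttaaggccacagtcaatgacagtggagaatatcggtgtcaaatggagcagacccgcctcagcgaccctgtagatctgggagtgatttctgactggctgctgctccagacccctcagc

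Between 39577911 and 59443987 reads were counted on genes per mouse and condition in the polarization experiment, and between 13421854 and 19704195 per library in the reprogramming experiment. The smallest count of a member in any library was 159, for Fcgr4. Macrophage markers summed to 10410 to 17570 CPM (a gene's reads relative to the TMM-scaled total of its library) and to 6578 to 18830 CPM in the 2 experiments. NK and T cell markers summed to at most 3.30 CPM, mast cell and basophil markers to at most 12.5 CPM, eosinophil markers to at most 46.3 CPM and neutrophil markers to 80.5 to 197.5 CPM. Of the 12 neutrophil markers, 1 was at 0 in every sample of each experiment, Elane in the polarization and Ly6g in the reprogramming experiment. Each siRNA pool lowered its own target, to 25.2% (E2f1), 38.0% (Myc), 21.9% (Pparg) and 27.3% (Stat6) of the mean with the negative pool, and the combined pool to 60.4%, 39.6%, 28.3% and 54.0%. Mock-transfected and untransfected M1-like macrophages could not be told apart gene by gene, with 0 of 14172 genes called by edgeR, 438 genes at an unadjusted p under 0.05, and 0 genes called by DESeq2.

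After 24 h of polarization, the activating receptors, the gamma chain and Syk stood highest in M1-like macrophages, and the inhibitory receptor stood highest in M2-like macrophages. Against M0, LPS and IFNγ raised 5 of the 6 genes and lowered Fcgr2b, beside 72.9% of all genes tested that were called (35.4% higher, 37.5% lower) by edgeR's quasi-likelihood test at an adjusted p under 0.05. IL-4 raised Fcgr2b and lowered 4 genes, beside 27.9% of all genes called (13.5% higher, 14.4% lower).

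**Figure D1:**
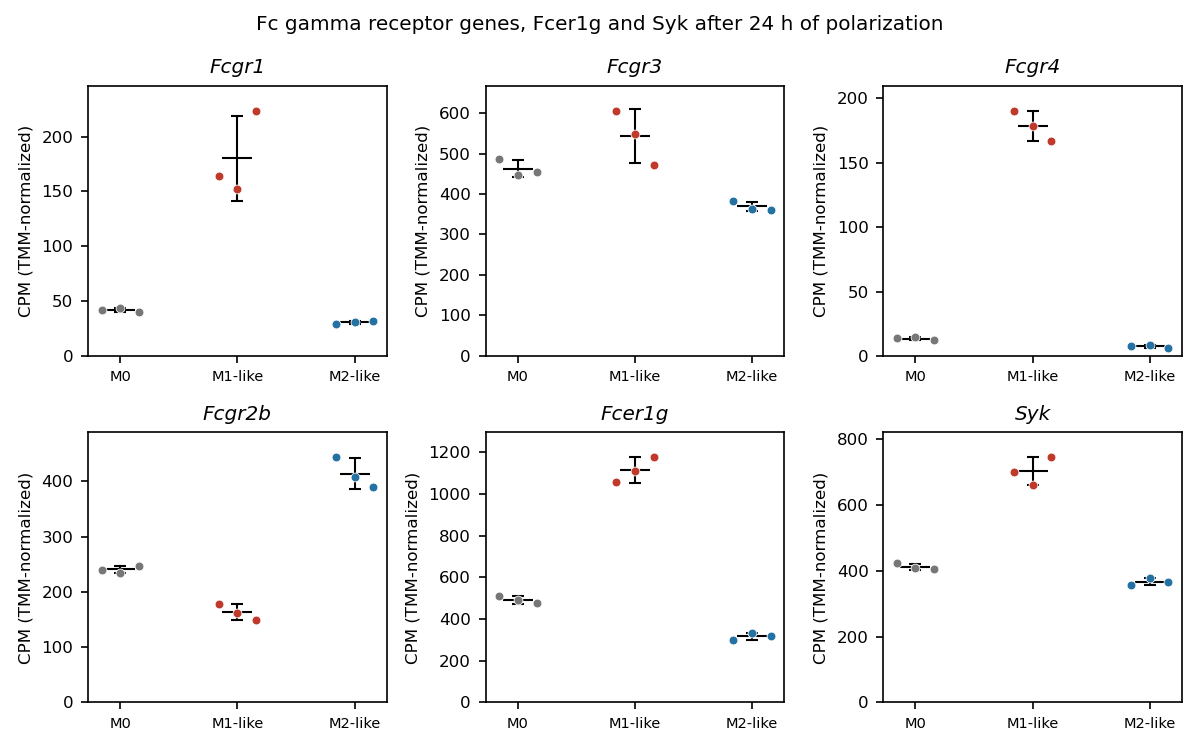
Expression of the 6 genes in CPM (TMM-normalized, linear axis from 0) in M0, M1-like and M2-like macrophages after 24 h, with 1 point for each of 3 mice and black bars for the mean ± SD. Fcgr2b falls and the other genes rise from M2-like to M1-like macrophages, and only for Fcgr3 do the M0 and M1-like points overlap.

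Fcgr4, the receptor for IgG2a and IgG2b, showed the widest difference. It was at 13.6, 14.3 and 12.6 CPM in M0 macrophages of mice 1, 2 and 3, at 190.5, 178 and 167 CPM under LPS and IFNγ, and at 7.85, 8.23 and 6.36 CPM under IL-4. The 3 states did not overlap. Its log2 fold change was 3.72 for LPS and IFNγ against M0 (SE 0.10, adjusted p = 6.97e-12), which is 13.2-fold, and -0.85 for IL-4 against M0 (SE 0.10, adjusted p = 7.12e-05).

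Fcgr1, the high-affinity receptor, was at 42.0, 44.2 and 40.1 CPM in M0, at 164, 152 and 224 CPM under LPS and IFNγ and at 29.0, 31.1 and 31.8 CPM under IL-4. The states were again separate, and mouse 3 had the highest level among the M1-like samples. LPS and IFNγ raised it 4.28-fold (log2 fold change 2.10, SE 0.12, adjusted p = 1.19e-08). With IL-4 its log2 fold change was -0.46 (SE 0.12, adjusted p = 0.0149), and this call was lost without the M0 sample of mouse 2 (adjusted p = 0.0615).

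Fcgr3, the low-affinity activating receptor, had the smallest fold changes of the 4 receptors. It was at 487, 448 and 453 CPM in M0, at 606, 549 and 473 CPM under LPS and IFNγ and at 383, 364 and 361 CPM under IL-4. The M0 and M1-like ranges overlapped, and the M2-like samples lay below both. Its log2 fold change against M0 was 0.23 with LPS and IFNγ (SE 0.08, adjusted p = 0.0273) and -0.33 with IL-4 (SE 0.08, adjusted p = 0.0136). The first call was lost without any 1 of 4 samples (M0 of mouse 2 or 3, M1-like of mouse 1 or 2, adjusted p between 0.0635 and 0.121), and the second without the M0 sample of mouse 1 (adjusted p = 0.0656).

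Fcgr2b, the inhibitory receptor, ran the other way. It was at 240.3, 234 and 247 CPM in M0, at 178, 161 and 149 CPM under LPS and IFNγ and at 444, 407 and 389.7 CPM under IL-4, with no overlap between the states. Its log2 fold change was -0.56 with LPS and IFNγ (SE 0.08, adjusted p = 2.65e-05), and 0.78 with IL-4 (SE 0.08, adjusted p = 2.08e-05), so that M1-like macrophages held 2.54-fold less than M2-like macrophages. B cells also express this gene, and the summed B cell markers were at 55.5 to 63.2 CPM in M1-like, 175.8 to 185 CPM in M0 and 158 to 164 CPM in M2-like samples, with none of the 10 markers at 0 in every sample. Most of that sum was Cd22, at 156 CPM in M0. The part of B cells in the level of Fcgr2b was not tested, and in these bulk samples fewer cells of a type and less RNA per cell cannot be told apart.

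The signalling partners rose with the activating receptors. Fcer1g was at 512, 491 and 475 CPM in M0, at 1055, 1112 and 1177 CPM under LPS and IFNγ and at 299, 334 and 319 CPM under IL-4. Its log2 fold change was 1.18 with LPS and IFNγ (SE 0.07, adjusted p = 1.01e-08) and -0.63 with IL-4 (SE 0.07, adjusted p = 3.92e-05). The states did not overlap, and mast cells and basophils, which also use this chain, had markers that summed to 2.47 to 5.60 CPM over the 9 samples. Neutrophil markers summed to 148.3 to 150.2 CPM in M0, 150 to 177 CPM in M1-like and 101 to 105.7 CPM in M2-like samples. The sums of macrophage, B cell, eosinophil, and NK and T cell markers were lowest in M1-like samples. The part of other cells in the levels of the activating receptors and Fcer1g was not tested.

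Syk was at 422, 409 and 405 CPM in M0, at 701, 660.4 and 746 CPM under LPS and IFNγ and at 356, 378 and 366 CPM under IL-4. LPS and IFNγ raised it by a log2 fold change of 0.77 (SE 0.06, adjusted p = 2.63e-07). The difference of -0.17 with IL-4 (SE 0.06, 95% interval -0.29 to -0.05) did not pass the threshold after adjustment (adjusted p = 0.0603), although all M2-like samples lay below all M0 samples, and DESeq2 called it (adjusted p = 0.0185).

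In the direct comparison of M1-like with M2-like macrophages all 6 genes were called, beside 72.6% of all genes tested (34.6% higher, 38.1% lower). Fcgr4 was 23.9-fold, Fcgr1 5.87-fold, Fcer1g 3.51-fold, Syk 1.92-fold and Fcgr3 1.47-fold higher in M1-like macrophages. The median log2 fold change of the 6 genes was 1.38, and that of all genes tested was -0.06.

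Levels of different genes were compared only per length of transcript, as RPKM over the union of all annotated exons. On this scale Fcer1g was the most abundant of the 6 at 24 h, with means of 564 RPKM in M0, 1275 RPKM under LPS and IFNγ and 363 RPKM under IL-4. Fcgr3 was the most abundant receptor in all 3 states, at 267, 313 and 213 RPKM. Fcgr4 changed places, with 10.8 RPKM in M0 and 5.96 RPKM in M2-like macrophages, below Fcgr1 (16.3 and 11.8 RPKM), but 142 RPKM in M1-like macrophages, above Fcgr1 (69.6 RPKM) and Fcgr2b (28.1 RPKM).

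The ratio of the summed RPKM of the 3 activating receptors to the RPKM of Fcgr2b gives their balance in each sample, as a description without a test. At 24 h it was 7.41, 7.09 and 6.71 in M0, 18.35, 18.57 and 19.05 under LPS and IFNγ and 3.105, 3.245 and 3.35 under IL-4, in 3 separate ranges. Without Fcgr3, whose sequence is close to that of Fcgr2b, the mean was 0.651, 7.57 and 0.250 in the same order. In the reprogramming experiment the M1-like conditions stood apart, with means of 19.5 (untransfected) and 19.9 (mock), whereas the means of the other 10 conditions ran from 5.83 with the Pparg pool to 8.92 with the Stat6 pool. Here Fcgr2b was at 20.2 RPKM in untransfected M1-like and 53.7 RPKM in untransfected M2-like macrophages. Of the activating receptors, Fcgr1 (17.9 and 24.6 RPKM) and Fcgr3 (245 and 311 RPKM) were also lower in M1-like macrophages, and only Fcgr4 (123 and 86.7 RPKM) was higher. Untransfected M2-like macrophages had a mean of 7.91 and M0 macrophages one of 7.82, and the ratio with the combined pool was 6.29, 6.70 and 8.39, which overlapped with that of the negative pool (7.94, 8.26 and 7.84). Without Fcgr3 the M1-like conditions were less apart, with 5.52 to 8.22 untransfected and 6.06 to 8.35 with mock transfection. The Stat6 pool (3.54 to 5.68) reached the untransfected range but not that with mock transfection. Untransfected M0 (1.39 to 1.53) and M2-like macrophages (1.83 to 2.52) did not overlap on this measure, although their ratios with Fcgr3 overlapped.

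**Figure D2:**
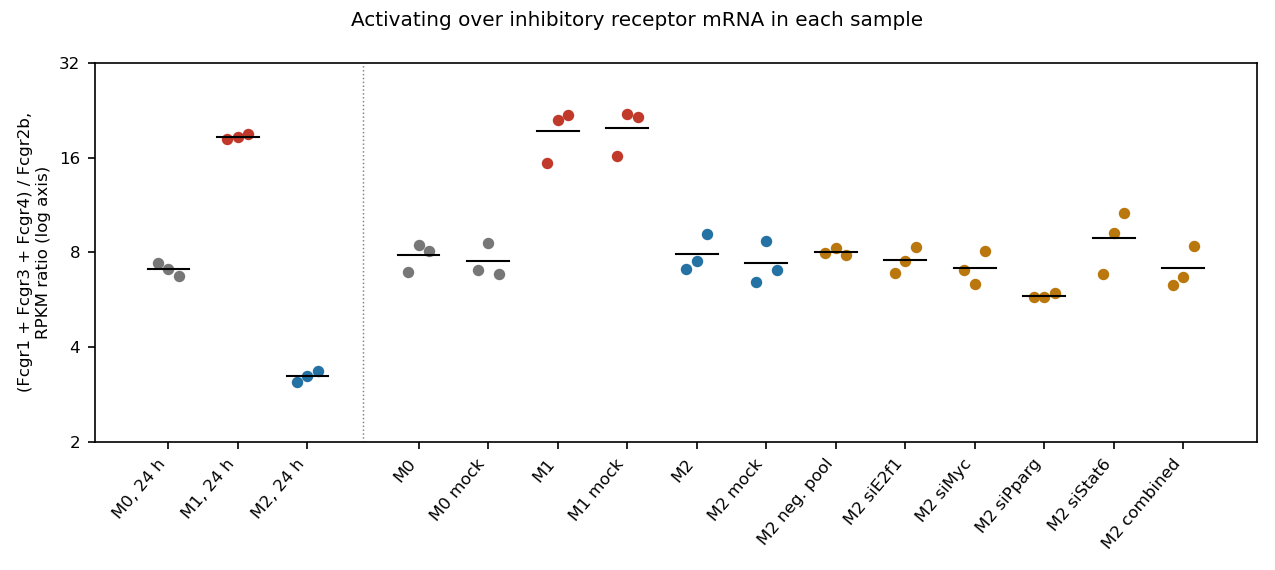
Ratio of the summed RPKM of Fcgr1, Fcgr3 and Fcgr4 to that of Fcgr2b (log axis) in the 3 conditions of the polarization experiment, left of the dotted line, and the 12 conditions of the reprogramming experiment, with 1 point per sample and a bar at the mean. The M1-like conditions lie between 15.4 and 21.98, all other samples at or below 10.7, and the M2-like samples at 24 h lowest, between 3.105 and 3.35.

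A promoter is shown for Fcgr4, the receptor with the widest range at 24 h. Windows from 250 bases before to 50 bases after the starts annotated by RefSeq (GRCm38.p6) were searched on both strands for 3 words: TTC and GAA 4 bases apart (the wider spacing of STAT6 sites), GAAA and GAAA 2 bases apart (the core of an interferon response element) and GAGGAA (a PU.1 core). These occurred in 6.95%, 3.44% and 28.3% of 32851 promoter windows of the same length. The stretch of Fcgr4 (chr1:171018826-171018915, plus strand) holds the interferon response word at -73 to -64 and a PU.1 word, read on the other strand, at -22 to -17. Capitals mark the matches.
Fcgr4 promoter: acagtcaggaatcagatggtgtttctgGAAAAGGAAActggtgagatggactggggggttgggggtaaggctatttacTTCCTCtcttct
Fcgr1 had a PU.1 word, read on the other strand, at -55 to -50, Fcgr3 had one in the windows of both its starts and Syk in 1 of 2, and the windows of Fcgr2b and Fcer1g held none of the 3 words. A match is a description of the sequence only.

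Of 114 further genes of Fc receptor biology in 7 lists, 104 were tested at 24 h. Of these, 53 were higher and 38 lower under LPS and IFNγ than under IL-4, beside 34.6% of all genes tested that were higher and 38.1% lower, the shares against which the counts of each list are to be read. Among the Src-family kinases and Csk, which phosphorylate the ITAM or restrain those kinases, 5 of 7 were higher and 1 lower. Src was at 250.5 ± 4.63 CPM (SD, n = 3) under LPS and IFNγ and 5.91 ± 0.867 CPM under IL-4. Fyn was the 1 gene of the list that was lower, with a log2 fold change of -0.39. The median log2 fold change of the list was 0.83.

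Of the phosphatases and adaptors that serve inhibitory receptors, 8 of 12 were higher and 3 lower, with a median of 0.37. Ptpn6, which encodes the phosphatase SHP-1, rose by a log2 fold change of 1.60, and the adaptor Dok3 by 1.29. The adaptor Dok2 was lower at -1.27 and the ubiquitin ligase Cblb at -0.70.

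The adaptors, lipid kinases and phospholipases downstream of Syk were split, with 13 of 26 higher and 9 lower and a median of 0.17. Malt1, the paracaspase of the Card9 and Bcl10 complex, was at 1022 ± 43.2 CPM under LPS and IFNγ and 107 ± 10.7 CPM under IL-4, and Prkce was higher by 2.82. The adaptors Lat2 (-0.81) and Blnk (-0.78) were lower. The actin machinery was split as well (12 of 27 higher, 10 lower, median 0.02), with log2 fold changes of 1.57 for Myo10, -2.77 for Gsn, which severs actin filaments, and -1.73 for Marcks. Vav1, an activator of Rac, was at 337 ± 16.4 CPM under LPS and IFNγ and 86.7 ± 4.90 CPM under IL-4.

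Other receptors that use Fcer1g or Syk went in opposite directions, 5 of 13 higher and 8 lower. Clec4e, the gamma chain-coupled receptor Mincle, was at 5801 ± 228 CPM under LPS and IFNγ and 17.1 ± 6.86 CPM under IL-4, and Clec4n (Dectin-2) was higher by a log2 fold change of 2.44. Clec7a (Dectin-1, which reaches Syk by its own motif) was at 21.9 ± 3.98 and 924 ± 157 CPM, and Cd300lb was lower (-4.54). Of the other ITIM-bearing receptors 6 of 10 were higher, among them Pilra (4.05) and Cd300lf (2.38), and 4 were lower, among them Clec4a2 (-5.61) and Cd300a (-1.45). Of the other Fc receptors 4 of 9 were higher and 3 lower, with Trim21, a cytosolic antibody receptor, higher (2.42) and Fcgrt, the neonatal Fc receptor, lower (-0.58).

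In the reprogramming experiment the fall of Fcgr2b in M1-like macrophages was found again, but Fcgr1 and Fcer1g did not stand higher there. Untransfected M1-like macrophages had lower Fcgr1, Fcgr2b and Fcer1g and higher Fcgr4 than M0 macrophages (4 of 6 called, beside 57.7% of all genes tested, 29.0% higher and 28.7% lower). The experiments differ in read length and layout and in the facility that sequenced them. No animal is named for the reprogramming samples, and the methods do not tie a harvest time to the untransfected ones. The experiments were never fitted together, so that the parts of sequencing, cell preparation and harvest time in their differences cannot be told apart.

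**Figure D3:**
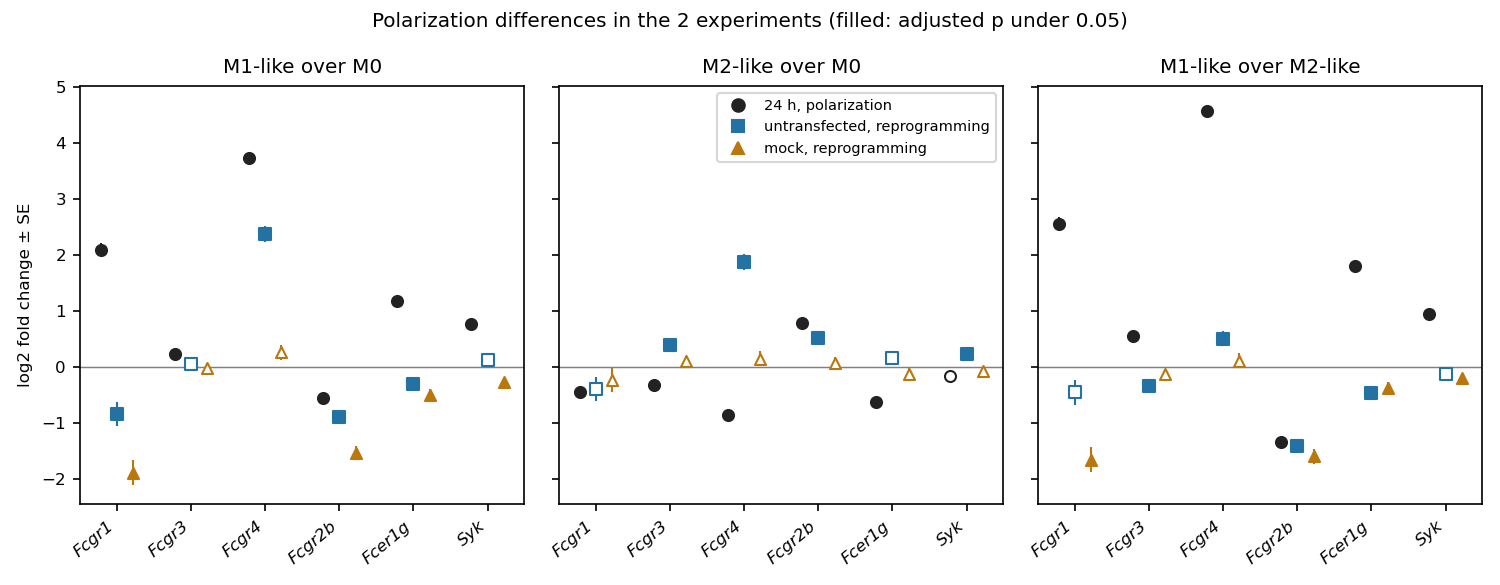
Log2 fold changes ± SE of the 6 genes for M1-like over M0, M2-like over M0 and M1-like over M2-like macrophages, at 24 h in the polarization experiment (circles) and in untransfected (squares) and mock-transfected cells (triangles) of the reprogramming experiment, filled at an adjusted p under 0.05. For M1-like over M0 macrophages, Fcgr1 is at 2.10 at 24 h but at -0.84 and -1.89 in the other experiment, whereas Fcgr2b lies below 0 in all 3 sets.

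Fcgr1 was at 87.4, 85.0 and 77.6 CPM in untransfected M0, at 47.9, 42.7 and 48.7 CPM in M1-like and at 61.4, 61.8 and 67.6 CPM in M2-like cells. The 3 ranges were separate with M0 at the top, and M1-like macrophages differed from M0 by -0.84 on the log2 scale (SE 0.22, adjusted p = 0.00158). The difference between M1-like and M2-like macrophages, -0.45, did not pass the threshold (adjusted p = 0.0761). EdgeR called it with only the compared groups (adjusted p = 0.00124), without a filter (7.12e-05) and with a replicate block (0.0182). It was not called by DESeq2, nor by edgeR without any 1 sample (adjusted p between 0.0993 and 0.18). M2-like against M0, not called either, was called with only the compared groups (-0.387, adjusted p = 0.00342) and without a filter (-0.389, 0.00271).

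Fcgr4 was at 36.5, 27.8 and 24.9 CPM in untransfected M0, at 141, 154 and 167 CPM in M1-like and at 111, 90.1 and 125 CPM in M2-like cells. Here M2-like macrophages also stood well above M0, by a log2 fold change of 1.87 (SE 0.15, adjusted p = 4.37e-11), and M1-like macrophages by 2.38 (SE 0.15, adjusted p = 4.81e-15). M1-like macrophages were higher than M2-like ones by 0.50 (SE 0.14, adjusted p = 0.00209), against 4.58 at 24 h.

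Fcgr3 was at 387, 431 and 418 CPM in untransfected M0, at 409, 429 and 437 CPM in M1-like and at 527, 514 and 577 CPM in M2-like cells. The M2-like samples lay above both other groups. They exceeded M0 by 0.39 on the log2 scale (SE 0.09, adjusted p = 0.0022), where 4 of 6 members were called, all higher, beside 19.9% of all genes (10.7% higher). M1-like macrophages differed from M2-like ones by -0.34 (adjusted p = 0.0015), in a comparison that called 1 member higher and 3 lower, beside 61.5% of all genes (31.3% higher, 30.2% lower).

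Fcgr2b was at 239, 208 and 208 CPM in untransfected M0, at 137, 106 and 107 CPM in M1-like and at 341, 302 and 289.8 CPM in M2-like cells. The 3 groups were separate, in the same order as at 24 h. Its log2 fold change between M1-like and M2-like macrophages was -1.41 untransfected (SE 0.13, adjusted p = 2.79e-11) and -1.60 with mock transfection (SE 0.13, adjusted p = 1.91e-12), against -1.35 at 24 h. The summed B cell markers were at 27.8 to 57.1 CPM in the 6 M1-like and M1-like mock samples and at 128.8 to 325 CPM in the other 30. Their part in the level of Fcgr2b was not tested here either.

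Fcer1g was at 533, 531 and 592.5 CPM in untransfected M0, at 501, 369 and 467 CPM in M1-like and at 612, 539 and 704 CPM in M2-like cells. The M1-like samples were the lowest, with a log2 fold change of -0.31 against M0 (adjusted p = 0.0126) and of -0.47 against M2-like macrophages (adjusted p = 0.000252). The call against M0 was lost without M0 replicate 3 (adjusted p = 0.0664) or M1-like replicate 2 (adjusted p = 0.135). Marker sums moved the same way, with mast cell and basophil markers at 0.441 to 1.47 CPM in M1-like and 3.68 to 12.5 CPM in M0 and M2-like samples, eosinophil markers at 0.610 to 1.70 and 15.5 to 24.3 CPM, and macrophage markers at 7087 to 8231 and 16470 to 18830 CPM. Their part in the level of Fcer1g was not tested. Syk was at 523, 513 and 487 CPM in M0, at 578, 562 and 510 CPM in M1-like and at 583, 608 and 604 CPM in M2-like cells. For Syk only the rise of M2-like over M0 macrophages was called by edgeR (0.24, SE 0.06, adjusted p = 0.00435), and DESeq2 also called a difference of -0.14 between M1-like and M2-like macrophages (adjusted p = 0.0177).

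Several of these genes stood higher in mock-transfected than in untransfected M0 macrophages. Mock cells were harvested 48 h after transfection, and the methods do not name a harvest time for untransfected cells of this experiment. The transfection reagent and any longer time in culture therefore cannot be told apart. Fcgr4 stood at 122, 119 and 165 CPM in mock-transfected M0 macrophages, 4.55-fold over the untransfected M0 level (log2 fold change 2.19, SE 0.15, adjusted p = 2.28e-12). Fcgr1 stood at 106, 155 and 272 CPM, a wide range that lay above all untransfected M0 samples (1.09, SE 0.21, adjusted p = 0.000309). Fcgr2b (0.61, adjusted p = 0.000544) and Syk (0.34, adjusted p = 6.19e-05) were higher too, so that 4 of 6 members were called, all higher, beside 20.4% of all genes tested (11.7% higher).

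For M2-like macrophages the 48 h without IL-4 add to the reagent and any longer time in culture, and cannot be told apart from them. Between mock-transfected and untransfected M2-like macrophages Fcgr1 alone among the 6 differed, beside 1.77% of all genes (1.67% higher). It was at 97.6, 183 and 173 CPM, which is 2.38-fold over untransfected cells (log2 fold change 1.25, SE 0.22, adjusted p = 0.000292). Fcgr4 had a difference of 0.46 (adjusted p = 0.0955), which DESeq2 called (adjusted p = 0.0399). In M1-like macrophages 0 of the 6 were called by edgeR or DESeq2 and 0 had an unadjusted p under 0.05, beside 438 of 14172 genes. The 95% intervals of the log2 fold change there ran from -0.39 to 0.48 for Fcgr1 and from -0.28 to 0.22 for Fcgr2b.

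M2-like mock macrophages had by then been without IL-4 for 48 h. Between them and M0 mock macrophages 0 of 6 members were called by edgeR or DESeq2, beside 3.83% of all genes with edgeR. At an unadjusted p under 0.05 there were 0 members, beside 2515 of 14172 genes. The M0 mock samples varied widely, with an SD of 47.85% of the mean for Fcgr1 and 29.0% for Fcgr2b. Without 1 sample, the log2 fold change ran from -0.495 to 0.208 for Fcgr1 and from -0.105 to 0.314 for Fcgr2b, so that 0 calls do not show equal levels. M1-like mock macrophages were lower than M0 mock macrophages in Fcgr1 (-1.89, SE 0.22, adjusted p = 8.95e-09), Fcgr2b (-1.54, adjusted p = 5.53e-12), Fcer1g (-0.51, adjusted p = 0.000112) and Syk (-0.27, adjusted p = 0.000264), 4 of 6 beside 60.4% of all genes (30.0% lower). Against M2-like mock macrophages these 4 genes were also lower, beside 60.7% of all genes (29.8% lower), Fcgr1 with a log2 fold change of -1.66 (SE 0.22, adjusted p = 1.03e-07).

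Tested as an interaction (mock minus untransfected), the M1-like against M0 difference changed for 4 of 6 members, beside 9.07% of all genes (5.85% lower). Fcgr4 changed by -2.12 (SE 0.20, adjusted p = 1.28e-08), Fcgr1 by -1.05 (adjusted p = 0.0268), Fcgr2b by -0.64 (adjusted p = 0.0194) and Syk by -0.38 (adjusted p = 0.0024). Without M0 mock replicate 3, the sample with the highest Fcgr1 and Fcgr2b of its group, the calls of Fcgr1 (-0.605, adjusted p = 0.155) and Fcgr2b (-0.38, adjusted p = 0.101) were lost. They were also lost without M0 replicate 3 or M1-like replicate 1, that of Fcgr1 without M1-like replicate 3 or M1-like mock replicate 1, and that of Fcgr2b without M0 replicate 2 or M1-like mock replicate 2 (adjusted p between 0.05 and 0.0791). With the 4 compared groups alone, only Fcgr4 was called. The M2-like against M0 difference changed for Fcgr4 and Syk, 2 of 6 beside 5.66% of all genes (3.25% lower), and the M1-like against M2-like difference for Fcgr1, 1 of 6 beside 1.13% of all genes (1.09% lower).

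**Figure D4:**
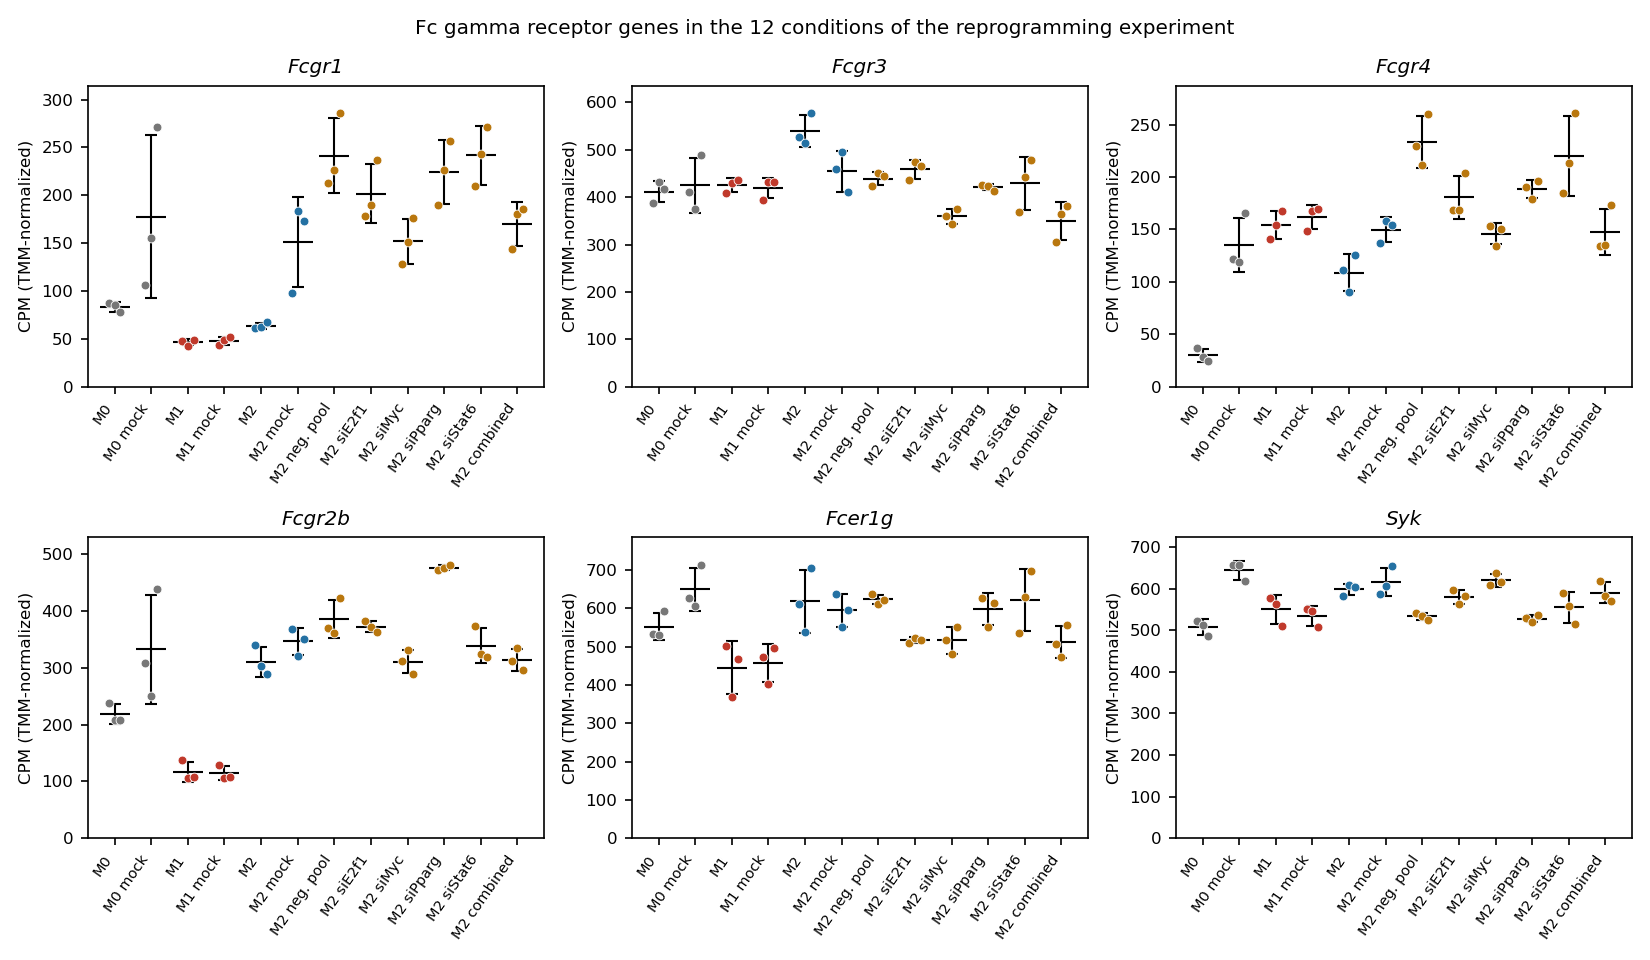
Expression of the 6 genes in CPM (linear axis from 0) in the 12 conditions of the reprogramming experiment, with 1 point per replicate (grey M0, red M1-like, blue M2-like, ochre M2-like with an siRNA pool) and the mean ± SD in black. Fcgr2b is lowest in both M1-like conditions, Fcgr4 is lowest in untransfected M0 macrophages, and Fcgr1 varies most between replicates in M0 mock macrophages.

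The order of the 12 conditions differed from gene to gene. Fcgr4 was lowest in untransfected M0 macrophages (mean 29.7 CPM), then in untransfected M2-like macrophages (109 CPM), which did not overlap with M0, and ended with the negative pool (234 CPM), while all neighbours above the M2-like condition overlapped. Fcgr1 went from 46.4 and 47.97 CPM in the M1-like conditions over 63.6 CPM in M2-like and 83.3 CPM in M0 macrophages to between 151 and 242 CPM in the other 8 conditions, all of them transfected or mock-transfected, whose neighbours in the order overlapped. Fcgr2b was lowest in the M1-like conditions (114 and 117 CPM), followed by M0 (218 CPM), and highest with the Pparg pool (472, 475 and 481 CPM), which did not overlap with the negative pool below it (371, 361 and 423 CPM). Neutrophil markers were also highest with the Pparg pool, at 175.1 to 197.5 CPM against 121.9 to 137.2 CPM with the negative pool, and their part in the level of Fcgr2b was not tested.

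Fcgr3 was lowest with the combined pool (350.4 CPM) and the Myc pool (359 CPM), which overlapped with each other, both below M0 (412 CPM) without overlap between the Myc pool and M0, and the untransfected M2-like level at the top (539 CPM) stood apart from its neighbour. Fcer1g ran from 446 CPM in M1-like to 649.6 CPM in M0 mock macrophages, a 1.46-fold range in which 10 of 11 neighbouring pairs overlapped. Syk ran from 508 CPM in M0 to 644 CPM in M0 mock macrophages, with every neighbouring pair overlapping.

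In M2-like macrophages, the log2 fold changes of the 6 genes with any targeting pool against the negative pool lay between -0.68 and 0.31. The negative control pool itself raised Fcgr4 and Fcgr1 over mock transfection and lowered Syk (3 of 6 called, beside 11.7% of all genes, 6.67% higher and 5.03% lower). Fcgr4 was at 229, 211 and 259.9 CPM with the negative pool and at 137, 158 and 155 CPM with mock transfection, without overlap (log2 fold change 0.64, SE 0.14, adjusted p = 0.00144). Fcgr1 was at 213, 226 and 286 CPM with the negative pool, above all mock samples (0.68, SE 0.21, adjusted p = 0.0318). Syk was at 540.2, 534 and 525 CPM with the negative pool and at 588, 605 and 653 CPM with mock transfection (-0.21, SE 0.06, adjusted p = 0.0183). The call of Fcgr1 was lost without M2-like mock replicate 1 (0.44, adjusted p = 0.223) or negative pool replicate 2 or 3, and that of Syk without mock replicate 3 (adjusted p = 0.138) or the same 2 negative pool replicates. Each pool below was compared with these negative pool samples, so that its values and those of the negative pool over mock share them with opposite sign.

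**Figure D5:**
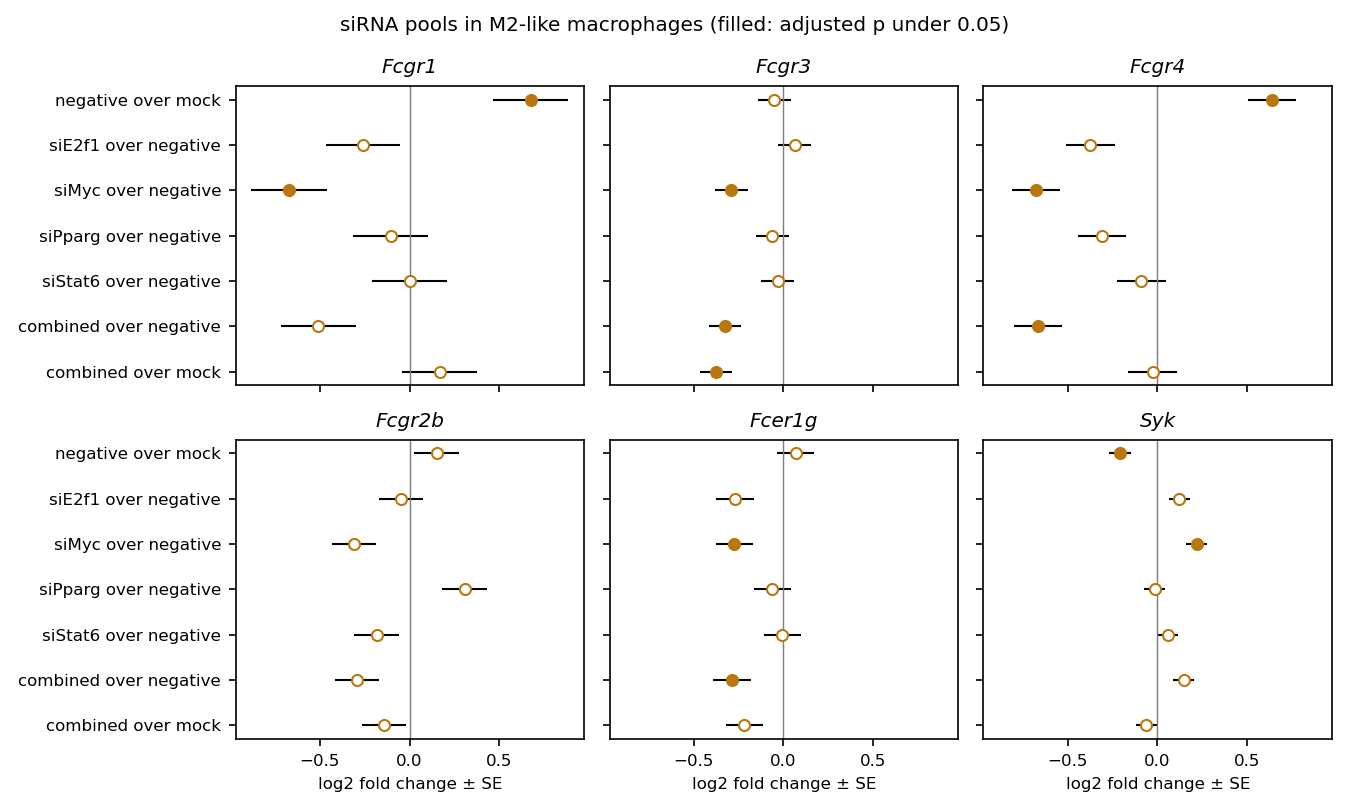
Log2 fold changes ± SE of the 6 genes in M2-like macrophages for the negative pool over mock, each siRNA pool over the negative pool and the combined pool over mock, filled at an adjusted p under 0.05. Fcgr4 is raised by 0.64 by the negative pool and lower with the combined (-0.66) and the Myc pool (-0.68) than with the negative pool, while the combined pool over mock is at -0.02.

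The combined pool lowered Fcgr4, Fcgr3 and Fcer1g against the negative pool, 3 of 6 beside 26.5% of all genes (13.9% lower). Fcgr4 was at 134, 135 and 173 CPM, below all samples of the negative pool (-0.66, SE 0.14, adjusted p = 0.000405). Fcgr3 was at 305, 365 and 381 CPM against 423, 451 and 444 CPM, without overlap (-0.33, SE 0.09, adjusted p = 0.00742). Fcer1g was at 507, 472 and 557 CPM against 637, 613 and 623 CPM, without overlap (-0.29, SE 0.10, adjusted p = 0.0416). Fcgr1 (-0.51, adjusted p = 0.0716), Fcgr2b (-0.29, adjusted p = 0.0785) and Syk (0.15, adjusted p = 0.0656) did not pass the threshold.

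These calls were uneven. Fcgr4 kept its call without any single sample, but Fcgr3 lost it without combined pool replicate 1 (-0.24, adjusted p = 0.082), and Fcer1g without any 1 of 5 of the 6 samples compared (adjusted p between 0.0706 and 0.169), combined pool replicate 3 being the exception. Against mock transfection instead, Fcgr3 was the 1 member that the combined pool changed (-0.38, SE 0.09, adjusted p = 0.00131), beside 37.1% of all genes (18.1% lower), and Fcgr4 differed by -0.02 (95% interval -0.29 to 0.24).

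With the Myc pool, compared with the same negative samples, 5 of 6 members were called, beside 29.6% of all genes (13.9% higher, 15.6% lower). Per the study's methods the Myc siRNA came from Dharmacon and the other targeting pools from siTools Biotech. The maker of the negative pool is not named there, so that siRNA maker and target cannot be told apart. This also holds for the combined pool, which contains the Myc siRNA. Fcgr4 was at 153, 134 and 151 CPM (-0.68, SE 0.14, adjusted p = 0.000287), Fcgr1 at 128, 151 and 176 CPM (-0.67, SE 0.21, adjusted p = 0.0148), Fcgr3 at 361, 343 and 374 CPM (-0.29, SE 0.09, adjusted p = 0.0149) and Fcer1g at 518, 479.7 and 552 CPM (-0.27, SE 0.10, adjusted p = 0.0472). All of these lay below the samples of the negative pool. Syk was at 608, 638 and 615 CPM and rose by 0.22 (SE 0.06, adjusted p = 0.00522), and Fcgr2b differed by -0.31 (adjusted p = 0.0589). Calls were lost without single samples for Fcgr1 (Myc pool replicate 1 or negative pool replicate 3), for Fcgr3 (replicate 2 of either pool) and for Fcer1g (any of the 6 samples but Myc pool replicate 3). Against mock transfection, Fcgr3 alone was called (-0.34, adjusted p = 0.00312), beside 38.7% of all genes (18.9% lower), with Fcgr1 at 0.00 and Fcgr4 at -0.04.

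The pools against E2f1, Pparg and Stat6 gave 0 calls among the 6 genes against the negative pool with edgeR and 0 with DESeq2, beside 0.910%, 5.74% and 1.51% of all genes. At an unadjusted p under 0.05 there were 3 members with the E2f1 pool, 2 with the Pparg pool and 0 with the Stat6 pool. Over all 14172 genes tested, this unadjusted threshold was met by 1539, 2737 and 1713 genes in the same order. With the E2f1 pool, Fcer1g was at 509.7, 523 and 519 CPM, below all negative pool samples (-0.27, 95% interval -0.48 to -0.07, adjusted p = 0.292). With the Pparg pool, Fcgr2b differed by 0.31 (95% interval 0.06 to 0.55, adjusted p = 0.148), with all 3 samples above the negative pool, and against mock transfection this gene was called (0.46, adjusted p = 0.00797), as was Syk (-0.22, adjusted p = 0.00738), beside 17.2% of all genes (9.59% higher, 7.63% lower). With the Stat6 pool, Fcgr1 differed from the negative pool by 0.00 (95% interval -0.41 to 0.41), and against mock transfection Fcgr1 (0.68, adjusted p = 0.0313) and Fcgr4 (0.55, adjusted p = 0.00571) were called, beside 11.5% of all genes (6.13% higher). The E2f1 pool changed 0 members against mock transfection, beside 11.6% of all genes.

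The receptor profile of iM1 macrophages differed from that of M1-like mock macrophages in 4 of 6 genes, beside 52.9% of all genes (27.2% higher, 25.6% lower). Fcgr1 was at 144, 180.1 and 186 CPM against 43.4, 48.6 and 51.9 CPM, 3.54-fold higher (adjusted p = 2.65e-08). Fcgr2b was at 311, 335 and 296 CPM against 129, 106 and 109 CPM, 2.74-fold higher (adjusted p = 3.23e-11). Neither gene overlapped between the groups. Fcgr3 was lower (-0.26, adjusted p = 0.017) and Syk higher (0.14, adjusted p = 0.0446), and each of these calls was lost without single samples (M1-like mock replicate 2 or 3 or combined pool replicate 1 for both, and combined pool replicate 2 for Syk). Fcgr4 (-0.14, 95% interval -0.40 to 0.13) and Fcer1g (0.16, 95% interval -0.04 to 0.37) did not pass the threshold.

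Among the further Fc receptor genes, 103 of 114 were tested in the reprogramming experiment, and the combined pool raised 14 and lowered 30 against the negative pool, beside 12.5% of all genes tested that were higher and 13.9% lower. Of the lowered genes 15 belonged to the actin machinery, where 2 of 27 rose, with a median log2 fold change of -0.21 against 0.01 over all genes tested. Vav2 (-0.80) and Dock2 (-0.56), both activators of Rac, fell, while Vav1 (0.45) and Asap1 (0.19) rose. In the list of Src-family kinases Fgr (1.09) and Src (0.81) rose and Fyn (-0.74) fell. Below Syk, Lat (-1.19) and Malt1 (-0.40) fell and Pld2 (0.24) rose, with 22 of 26 genes not called.

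The receptors that share Fcer1g or Syk were again split, with 5 of 13 higher and 4 lower with the combined pool. Clec4e was at 188 ± 38.5 CPM (SD, n = 3) with the combined and 13.3 ± 2.19 CPM with the negative pool, and Clec4n rose by 2.11. Tyrobp, the other ITAM-bearing chain of macrophages, fell from 1363 ± 50.3 to 885.5 ± 25.8 CPM, and Clec7a from 1631 ± 33.2 to 1126 ± 46.9 CPM. Of the ITIM-bearing receptors Pilra (2.04) and Cd33 (1.08) rose and Clec4a2 (-0.71) and Cd300a (-0.29) fell. Of the proteins around inhibitory receptors, 3 of 12 fell, among them Dok2 (-0.77) and Cblb (-0.33). Fcgrt fell from 33.7 ± 1.67 to 13.2 ± 2.31 CPM.

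In mock-transfected cells, M1-like macrophages had 18 of these 103 genes higher and 59 lower than M2-like macrophages, beside 30.9% of all genes higher and 29.8% lower. In the actin list 1 of 27 was higher and 19 were lower, with a median of -0.51 against 0.03 over all genes, whereas at 24 h 12 were higher and 10 lower.

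The genes whose condition means ran most like those of each member are given as a description, by Pearson's r over the 12 conditions of the reprogramming experiment, 8 of which are M2-like and all of which share the normalization. Fcgr2b ran most like Clec7a (r = 0.99), Gfod1 and Spryd7 (both 0.99), whose r over the 9 polarization samples was 0.877, 0.691 and -0.808. Fcgr4 ran most like P2ry14 (0.96), Pou3f1 (0.93) and Il15 (0.89), which had r of 0.974, 0.962 and 0.996 over the 9 polarization samples. Fcgr1 ran most like Gm6548 (0.98), Ly86 (0.98) and Tor1aip1 (0.97), with -0.85, -0.936 and 0.973 over the polarization samples. Fcer1g ran most like Gadd45b (0.96), Aacs (0.95) and Rhob (0.95), with 0.97, -0.229 and -0.925 over the polarization samples. Fcgr3 ran most like Ephx1 (0.91), Dynlt3 (0.89) and Fbxo8 (0.88), with -0.657, -0.647 and -0.579 there. Syk ran most like Ccbe1 (0.76), Gdf15 (0.70) and Tbc1d10a (0.60), the weakest likeness of the 6, with -0.92, 0.543 and 0.558.

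Among the members themselves, Fcgr1 and Fcgr2b had r of 0.87 over the 12 conditions and of -0.90 over the 9 polarization samples. Fcgr1 and Fcer1g gave 0.61 and 0.98, and Fcgr4 and Fcgr1 gave 0.42 and 0.99 in the same order. These correlations describe which conditions were sampled and carry no test.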

How the data were processed

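The sources used here give RNA sequencing of 54 libraries, 18 of the polarization (single-end, 50 nucleotides) and 36 of the reprogramming experiment (paired-end, 150 nucleotides). The authors used Trimmomatic for trimming and TopHat2 for mapping to GRCm38/mm10, and deposited featureCounts read counts per Ensembl gene. The treatment of strand and of multi-mapping reads is not given in the sources used here. Symbols, positions and exon lengths came from GENCODE M21 (37693 identifiers matched).

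Technical replicates were summed (chi-square per gene 1.07 to 1.10, against 3.64 to 52.1 between mice). Each experiment had its own edgeR quasi-likelihood fit over all of its conditions, on genes kept by filterByExpr (minimum count 10, minimum total 15) with TMM factors, and p-values were adjusted over all genes tested by the Benjamini-Hochberg method. An SE is |log2 fold change| / √F, and 95% intervals are normal.

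Alternatives were DESeq2 (the authors' tool), RLE factors, other filters, a replicate block, only the compared groups, technical replicate 1 alone, a fold limit, mock as the reference, and each sample left out. Same-numbered polarization samples are from the same mouse (median correlation of deviations 0.27 over 9 pairs, and -0.14 over 18 pairs of different mice), and the block changed none of their calls. Members, lists and tests were chosen with earlier results of these data known. Genes named are the 6 members, the siRNA targets, markers, the 3 genes most like each member, and, per list, the 2 largest rises and falls among called genes whose groups did not overlap and whose mean log2 CPM was at least 2, in M1-like against M2-like at 24 h and in the combined against the negative pool. Some items that this rule or the searches would name are not reported here. R 4.3.3, edgeR 4.0.16, DESeq2 1.42.0, Python 3.11.15, NumPy 2.4.6, pandas 2.3.3 and matplotlib 3.10.9 were used.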

Additional observations from a re-analysis of the deposited data

Results flagged for a closer look

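Differences of polarization effects between mock-transfected and untransfected macrophages passed the interaction test (edgeR, adjusted p under 0.05) for 7 results. The M1-like against M0 difference changed by -1.05 for Fcgr1, -0.64 for Fcgr2b, -2.12 for Fcgr4 and -0.38 for Syk, the M2-like against M0 difference by -1.73 for Fcgr4 (adjusted p = 1.16e-06) and -0.30 for Syk (adjusted p = 0.0259), and the M1-like against M2-like difference by -1.20 for Fcgr1 (adjusted p = 0.0445). The call of Syk for M2-like against M0 was lost without any 1 of 8 of the 12 samples (adjusted p between 0.0548 and 0.0846), namely replicates 2 and 3 of M0, 1 and 2 of M0 mock, 2 and 3 of M2-like and 1 and 2 of M2-like mock macrophages, and the last call of Fcgr1 was lost without any 1 of 11 of the 12 samples (adjusted p between 0.0595 and 0.201), M2-like mock replicate 1 being the exception.

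Other effects had opposite directions at 24 h and in the reprogramming experiment, with every sample of one group above or below every sample of the other. These differences between experiments were not tested, because the experiments were not fitted together. For M1-like against M0, Fcgr1 had a log2 fold change of 2.10 at 24 h, -0.84 untransfected and -1.89 with mock transfection, Fcer1g 1.18, -0.31 and -0.51, and Syk 0.77 at 24 h and -0.27 with mock transfection. For M2-like against M0 untransfected, Fcgr3 had -0.33 at 24 h and 0.39 in the reprogramming experiment, Fcgr4 -0.85 and 1.87, and Syk -0.17 and 0.24, the value of -0.17 not being called. For M1-like against M2-like, Fcgr1 had 2.55, -0.45 and -1.66, Fcer1g 1.81, -0.47 and -0.38, and Syk 0.94, -0.12 and -0.20 at 24 h, untransfected and with mock transfection, and Fcgr3 0.55 at 24 h and -0.34 untransfected. Of these, -0.45 for Fcgr1 and -0.12 for Syk were not called.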

How the results depend on the processing

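Of 138 member results each, DESeq2 kept 133 and gained 5 calls, RLE size factors kept 137 and gained 1, a minimum of 10 counts in every sample kept 137 and gained 1, no filter kept 124, gained 11 and lost 3, and fitting only the compared groups kept 124, gained 9 and lost 5. Technical replicate 1 alone kept all 18 results of the polarization experiment. Of 936 results without 1 sample, 867 kept their call, 65 lost it, 4 gained one and 0 reversed. The cause of these changes was not tested.

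With a log2 fold change of 1 or more in size also required, which can only remove calls, 3 members were called for LPS and IFNγ against M0 and 0 for IL-4 against M0, 1 each for untransfected M1-like against M0, M2-like against M0 and M1-like against M2-like, 2 each for mock M1-like against M0 and against M2-like, for mock against untransfected M0, for the combined pool against M1-like mock and for the M1-like against M0 interaction, 1 for the M2-like against M0 interaction, and 0 for the negative, combined and Myc pools and for the combined pool against mock. Over all genes this limit left 4928 and 562 of 16110 for LPS and IFNγ and for IL-4. Of 14172 it left 2723, 514 and 3150 for the untransfected comparisons in that order, and 2876 and 2938 for the mock ones. It left 670 for mock against untransfected M0, 2314 for the combined pool against M1-like mock, and 412 and 212 for the interactions. For the negative, combined and Myc pools it left 281, 503 and 537, and 1074 for the combined pool against mock. Mock against untransfected M2-like macrophages called 2 members with DESeq2, without a filter and with the replicate block. The genes called were 303 of 13622, 387 of 24040 and 318 of 14172 in the same order. The combined against the negative pool called 5 without a filter, with the block and with only the compared groups. Beside these, 3565 of 24040, 4276 of 14172 and 4229 of 13137 genes were called. The E2f1 pool called 1 without a filter and 2 with only the compared groups, the Pparg pool 2 in each of these, and both interactions against M0 called 1 with only the compared groups. Over all genes the E2f1 pool called 237 of 24040 and 342 of 13043 in these settings. The Pparg pool called 951 of 24040 and 1064 of 13061. The interactions called 735 of 13527 genes for M1-like and 495 of 13299 for M2-like against M0. With mock as the reference, the Myc pool called 1, the Pparg pool 2 and the Stat6 pool 2 members, beside 38.7%, 17.2% and 11.5% of all genes. Among values called with either reference, the sign changed for Fcgr1 with the Myc pool (0.004, adjusted p = 0.992) and for Fcgr4 with the Stat6 pool (0.551, adjusted p = 0.00571). Values called with neither changed sign too, among them Fcgr1 (-0.26 to 0.42) and Fcgr4 (-0.37 to 0.27) with the E2f1 pool.

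Without 1 sample, the number of members called ranged from 1 to 3 for the negative pool against mock, 1 to 3 for the combined and 3 to 5 for the Myc pool against the negative pool, 2 to 4 for the combined pool against M1-like mock, and 2 to 4, 1 to 2 and 0 to 1 for the interactions of M1-like against M0, M2-like against M0 and M1-like against M2-like. The activating to inhibitory receptor ratio was higher in M1-like than M2-like macrophages at 24 h by 2.53 on the log2 scale, by 4.92 without Fcgr3 and by 2.42 with the length of 1 principal transcript, a choice made after seeing the data. The same lengths enter both states, so that the last value could move little. The ratios themselves did depend on length. Their means in M0, M1-like and M2-like macrophages were 7.07, 18.66 and 3.232 over all exons, and 5.462, 13.38 and 2.505 with 1 transcript. Of the 18 genes named as most like a member, 9 were also among the 3 highest over all 36 samples.

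Replicates of the reprogramming experiment share only a number (35 of 36 samples correlated best with their own number, median r 0.188 over 198 same-numbered pairs). The replicate block lost 0 calls and added 8: Fcgr1 in untransfected M1-like against M2-like (adjusted p = 0.0182), Fcgr4 in mock M1-like against M0 (0.0305) and in mock against untransfected M2-like (0.0103), Fcer1g in mock against untransfected M0 (0.0317), Fcgr1 (0.0111) and Syk (0.0449) with the combined pool, Fcgr2b with the Myc pool (0.0379), and Fcer1g in the combined pool against mock (0.028), where 2 members were then called beside 5692 of 14172 genes.

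Counts over all genes moved by more than 1.5 times for the E2f1 pool (129 genes, and 209 with DESeq2, 237 without a filter, 236 with the block, 342 with only the compared groups), the Stat6 pool (214, and 362 with DESeq2, 380 with the block), mock M2-like against M0 (543, and 900 with the block, 111 with only the compared groups), mock against untransfected M1-like (0, and 42 without a filter) and M2-like (251, and 387 without a filter), and the interactions of M1-like against M0 (1286, and 735 with only the compared groups), M2-like against M0 (802, and 495) and M1-like against M2-like (160, and 306 without a filter). The smallest count of a member in 1 library was 159.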
